A study of Mus musculus with 8 samples.

Results

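The genes described here are 9 members of the Myc and Max network, namely Myc, Mycn, Max, Mga, Mlx, Mnt, Mxi1, Mxd4 and Zbtb17, of 21853 protein-coding genes annotated in the mouse. They were named as a family, but the family was selected on a value in these data, the H3K36me3 level of Myc, which was higher after induction of the reprogramming factors while most genes were lower. The values of Myc in that contrast are therefore a description and carry no test. ChIP–seq for H3K36me3 was performed on i4F MEFs, fibroblasts from an E13.5 mouse embryo that carry a doxycycline-inducible cassette of OCT4, SOX2, KLF4 and MYC (OSKM) in every group. All cells came from 1 embryo, called Clone 1 in the labels, and were kept for 72 h in iPSC medium with nothing added (MEF), with vitamin B12 at 2 µM (MEF B12), with only doxycycline added (OSKM) or with both agents (OSKM B12). The labels give 1 µg/ml doxycycline and the methods of the study 1 mg/ml, and the labels' extraction text names the antibody as H3K3me3 where the other fields give H3K36me3. For each condition there was 1 H3K36me3 library, with its own input, so no difference between conditions has a replicate check and none was tested. Doxycycline treatment and expression of the cassette cannot be told apart, and cultures of the same embryo cannot show how embryos vary.

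MYC is a transcription factor that binds E-box sequences as a dimer with MAX, and MYCN is its close relative in neural and embryonic tissue. MNT and MGA and the MXD proteins, among them MXI1 and MXD4, also pair with MAX and generally repress the genes that MYC and MAX activate. MLX is a MAX-like partner that pairs with MNT, with some MXD proteins and with the nutrient-sensing factors MLXIP and MLXIPL, and ZBTB17, known as MIZ1, is a zinc-finger factor through which MYC represses genes. H3K36me3 is written by SETD2 as it travels with RNA polymerase II, so the mark lies along the bodies of transcribed genes and increases toward their 3′ ends. In fibroblasts MYC drives growth and division, and as a reprogramming factor it raises the efficiency with which the other factors act.

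The values came from the 4 deposited lists of broad peaks. The H3K36me3 libraries held between 29046913 and 33399267 tags, with OSKM the deepest, and bases in peaks summed to 154 Mb in MEF and 165.9 Mb in MEF B12, against 92.8 Mb for OSKM and 165.8 Mb for OSKM B12. Fibroblast genes carried the mark in every library, with 8 of 8 markers (Col1a1, Vim, Fn1 and others) covered over more than 10% of the gene body. The 4 epithelial markers held no peak in any library, and of 4 pluripotency markers only Zfp42 did, in OSKM, over 2.42% of its body. The 3 endothelial markers held no peak apart from 0.903% of Kdr in OSKM B12. Of the 3 leukocyte markers Ptprc had none, Spi1 was covered over 0% to 4.92%, and Cd68 was covered over 76.0% to 100% in all libraries. Bulk chromatin cannot tell fewer cells carrying the mark from less mark per cell.

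For each gene body, from the start (TSS) to the end (TES) of the longest protein-coding transcript in GENCODE M21, the covered share is the percentage of its bases inside a peak. The scaled pileup is the mean number of extended fragments over the bases of a peak, per 1000000 tags of the library. Every base of a peak takes this mean. A value over part of a peak is thus that of the whole peak, also where the peak runs past the gene. The density of a gene is its scaled pileup summed over bases in peaks and divided by the length of the body, so it can be compared between genes. A base outside peaks counts as 0. Intervals are 95% Poisson intervals on the estimated number of tags and hold counting error only. A gene was called marked when at least 10% of its body was in peaks in at least 1 library, which was true of 9885 genes and of 7 of the 9 members. Mycn and Mxi1 were not marked.

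The level of the mark differed widely within the network. In MEF, Max (density 0.601, 95% interval 0.572 to 0.630), Mlx (0.582, 0.520 to 0.650) and Mxd4 (0.581, 0.544 to 0.621) stood highest and did not differ beyond counting error. Mga (0.362, 0.349 to 0.376) and Zbtb17 (0.361, 0.338 to 0.385) followed at the same level, then Mnt (0.219, 0.197 to 0.243), Myc (0.0473, 0.0310 to 0.0692) and Mxi1 (0.0103, 0.00805 to 0.0130). The partner proteins MAX and MLX thus had densely marked genes, above 91.1% and 89.7% of all marked genes in MEF. The gene of the repressor MXD4 was as dense, above 89.5%, while Myc itself stood above only 7.80%. The order at the top changed in OSKM, where Mlx was at 0.409, Mxd4 at 0.375 and Max at 0.333, and the intervals of Mlx (0.359 to 0.465) and Max (0.313 to 0.355) did not overlap. Zbtb17 was above Mga in OSKM, at 0.234 (0.216 to 0.253) against 0.175 (0.166 to 0.184), and again in OSKM B12, at 0.519 (0.490 to 0.549) against 0.388 (0.374 to 0.403). The densities of Zbtb17 draw in part on a peak that lay mostly past its TES.

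**Figure D1:**
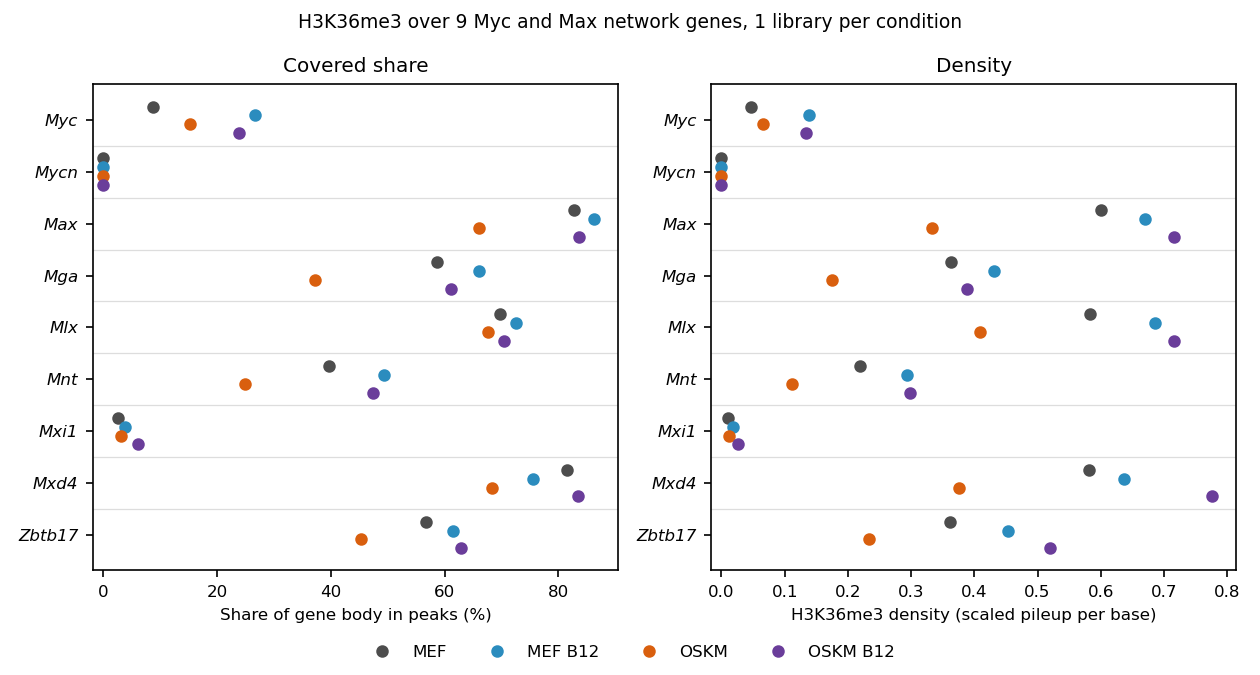
Share of the gene body in H3K36me3 peaks (left, %) and density (right, scaled pileup per base) of the 9 genes, with 1 point for each of the 4 libraries. OSKM is the lowest library for Max, Mga, Mlx, Mnt, Mxd4 and Zbtb17, and Mycn is at 0 throughout. MEF is the lowest for Myc and for Mxi1 over the gene body, but not in density with the 2 kb past the TES.

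Myc (ENSMUSG00000022346) lies on chromosome 15, bases 61985391 to 61990350 of mm10, on the plus strand, and has 3 exons over 4960 bases. No other protein-coding gene overlaps it, and the nearest, A1bg, is 1062379 bases away. Its covered share was 8.69% in MEF and 26.7% in MEF B12, against 15.2% for OSKM and 23.9% for OSKM B12. Its density was 0.0473 in MEF and 0.138 in MEF B12, against 0.0652 for OSKM and 0.133 for OSKM B12. Both libraries with vitamin B12 were high and both without it were low, and MEF was the lowest of all 4. These densities rested on few fragments, an estimated 26.2 tags in MEF (17.1 to 38.3), 68.3 in MEF B12 (53.1 to 86.6), 37.5 for OSKM (26.5 to 51.6) and 66.9 for OSKM B12 (51.9 to 85.0). OSKM was 1.38 times MEF, with an interval of 0.837 to 2.27 that holds 1, so the order of the 2 libraries was not resolved at this depth.

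The peaks of Myc were few and short. MEF held 1 peak in the body, of 431 bases within exon 3, with a pileup of 17.7 and a fold enrichment over input of 2.10. OSKM held a peak of 464 bases in exon 3, with a pileup of 16.4 and a fold enrichment of 2.33, and a second one of 288 bases inside the coding part of exon 2. Exon 2 held no peak in MEF. Without the exon 2 peak, the density of Myc in OSKM would be 0.0460, just below the 0.0473 of MEF, and the covered share 9.35%, still above 8.69%. The exon 2 peak of OSKM had a pileup of 11.1, a fold enrichment of 2.29 and a −log10 q-value of 1.25, close to the value of 1 at which the broad part of a peak was cut off. Exon 2 also held a peak in MEF B12 (333 bases, pileup 11.98, fold enrichment 3.11) and in OSKM B12 (447 bases, pileup 11.8, fold enrichment 2.27). The −log10 q-values of these peaks were 3.13 and 1.565. By the −log10 p-value of MACS2 against input, the exon 2 peaks of OSKM B12 and OSKM were close, at 2.881 and 2.835.

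Past the end of the gene the order of the libraries was different. In MEF a peak of 934 bases began 120 bases past the TES of Myc, in MEF B12 the peak of exon 3 ran on for 991 bases past the TES, and in OSKM B12 a peak of 896 bases lay there. OSKM had no peak in the 2 kb past the TES. With these 2 kb counted together with the body, a choice made after seeing the peaks, the density of Myc was 0.0955 in MEF and 0.177 in MEF B12, against 0.0465 for OSKM and 0.168 for OSKM B12. OSKM was then the lowest library, at 0.487 times MEF (0.329 to 0.721). Over the 311 bases of the body shared by peaks of all 4 libraries, the scaled pileup was 0.545 in MEF and 0.551 in MEF B12, against 0.492 for OSKM and 0.653 for OSKM B12. On this measure OSKM was at 0.903 of MEF, between 1 and the median ratio of 0.783 over 8934 marked genes with at least 200 such bases.

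**Figure D2:**
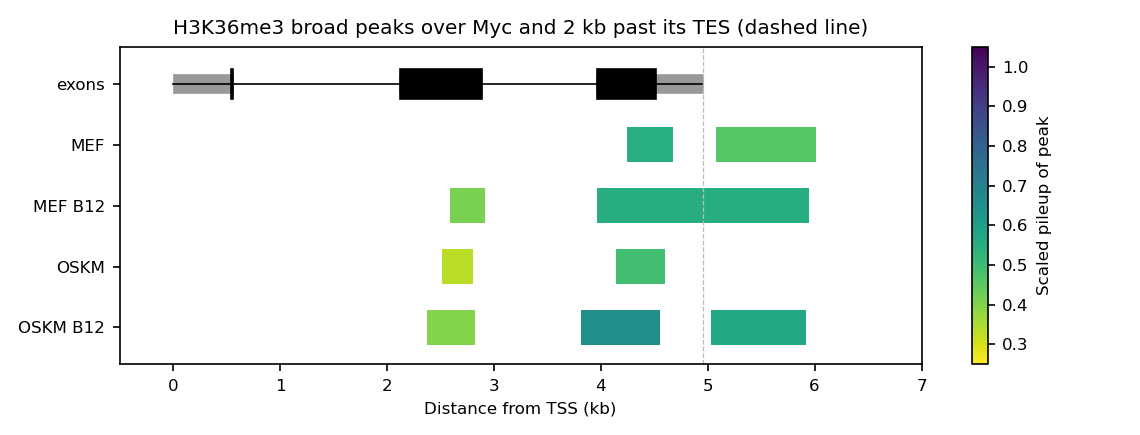
Broad peaks over Myc and the 2 kb past its TES in the 4 libraries, against distance from the TSS in kb, with exons at the top (black, coding; grey, untranslated) and colour for the scaled pileup of each peak. OSKM shows the 288-base peak in exon 2 and lacks the peak past the TES that the other 3 libraries have.

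The cassette carries coding sequences of the 4 factors, so a fragment from it can align to the coding exons of the gene in its own place, and exon signal from the 2 sources cannot be told apart. Coding exons of Myc were 20.1% covered in MEF and 62.3% in MEF B12, against 48.8% for OSKM and 73.9% for OSKM B12. Its introns were 0% covered in MEF and in OSKM, 1.22% in MEF B12 and 5.38% in OSKM B12. With all coding exons left out of every gene, also a choice made after seeing the peaks, the log2 change of Myc from MEF to OSKM was −0.25, against 0.24 over the whole body (log2 of density plus 0.05, as in all log2 changes here). The input level implied by pileup and fold enrichment was high under the exon 3 peak, at 7.93 fragments in MEF, above 99.9% of all MEF peaks. It was 6.47 in OSKM, above 97.9%, 5.17 in OSKM B12, above 89.9%, and 3.85 in MEF B12, above 28.8%, where the peak ran past the TES. The part of the cassette in the values of Myc was not tested. Of the other genes of the cassette, Pou5f1, which encodes OCT4, and Sox2 had no peak in the body in any library. Klf4 had a density of 0.218 in MEF and 0.188 in MEF B12, against 0.0462 for OSKM and 0.171 for OSKM B12, with OSKM the lowest. Over the bases of Klf4 in peaks in all 4 libraries its scaled pileup was 0.425 in MEF and 0.448 in OSKM. Coding exons made up 84.0% of the peak bases of Klf4 in OSKM and 88.3% of those of Myc.

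By the distance between log2 densities over the 4 libraries, the marked genes most like Myc were Paqr3 (distance 0.264), Hcn2 (0.271), Fosl1 (0.299), Naprt (0.349) and Tfap4 (0.353). Fosl1, an AP-1 subunit, had densities of 0.0658 in MEF and 0.131 in MEF B12, against 0.0774 for OSKM and 0.140 for OSKM B12. Tfap4, an E-box factor and known target of MYC, was at 0.0482, 0.142, 0.0405 and 0.139 in the same order. These genes were chosen on the same 4 densities, so their shared pattern is set by the choice, and each likeness rests on 4 points.

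Mycn (ENSMUSG00000037169) lies on chromosome 12, bases 12936093 to 12941914, on the minus strand. It held no peak in any of the 4 libraries, so no enrichment of the mark was detectable over this gene at this depth, with or without the factors or vitamin B12.

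Max (ENSMUSG00000059436), the shared partner of the network, lies on chromosome 12, bases 76937274 to 76962201, on the minus strand. Its covered share was 82.7% in MEF and 86.2% in MEF B12, against 66.1% for OSKM and 83.5% for OSKM B12. Its density was 0.601 in MEF and 0.670 in MEF B12, against 0.333 for OSKM and 0.716 for OSKM B12, an estimated 964 to 1810 tags. OSKM stood well below the other 3 libraries, at 0.555 times MEF (0.513 to 0.601), and OSKM B12 was 2.15 times OSKM (1.99 to 2.32). In MEF a single peak of 20533 bases ran from intron 1 past the TES, with 3 short peaks upstream of it in the same intron. In OSKM the 5′ part of intron 1 held no peak, and the first one began 6886 bases from the TSS, against 2331 in MEF, 1784 in MEF B12 and 2376 in OSKM B12. The coding exons were 92.0% covered in every library, so the difference in covered share lay in the introns, at 82.1% in MEF and 64.2% in OSKM. Where all 4 libraries had peaks, over 16118 bases, the scaled pileup was 0.781, 0.837, 0.507 and 0.918, so the signal inside the peaks was lower in OSKM too, at 0.649 of MEF. This ratio was below the first quartile of 0.732 over the marked genes.

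Mlx (ENSMUSG00000017801), the MAX-like partner, lies on chromosome 11, bases 101087277 to 101092207, on the plus strand. Psmc3ip overlaps 385 of its 4931 bases. Its covered share differed little between libraries, at 69.8% in MEF and 72.5% in MEF B12, against 67.6% for OSKM and 70.4% for OSKM B12. The mark formed 1 peak in each library, of 4948 to 5410 bases, from intron or exon 4 to between 1615 and 1835 bases past the TES. The height of that peak differed more, and the density was 0.582 in MEF and 0.686 in MEF B12, against 0.409 for OSKM and 0.715 for OSKM B12. OSKM was at 0.703 of MEF (0.594 to 0.832) and OSKM B12 at 1.75 times OSKM (1.48 to 2.06). Mlx was the only marked member whose density was lower in OSKM by less than 1.5-fold.

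Mga (ENSMUSG00000033943) encodes a very large protein with both a T-box and a MAX-binding domain that is part of a Polycomb complex. It lies on chromosome 2, bases 119897228 to 119969581, on the plus strand, and its 24 exons span 72354 bases. Its covered share was 58.7% in MEF and 66.1% in MEF B12, against 37.2% for OSKM and 61.1% for OSKM B12. Its density was 0.362 in MEF and 0.431 in MEF B12, against 0.175 for OSKM and 0.388 for OSKM B12. OSKM was at 0.484 of MEF (0.454 to 0.515), the lowest ratio of the members. The mark was also broken up in OSKM, into 25 peaks of which the longest had 2890 bases, while MEF had 16 peaks, MEF B12 11 and OSKM B12 13, with longest peaks of 12281, 12539 and 11955 bases. Exons were covered more than introns. Coding exons of Mga were 96.4% covered in MEF and 94.3% in MEF B12, against 84.0% for OSKM and 95.2% for OSKM B12, but introns 52.5%, 61.7%, 30.9% and 57.0%. Over the 24015 bases in peaks in all 4 libraries, the ratio of OSKM to MEF was 0.757, near the median of 0.783, so the lower density of Mga in OSKM went with fewer bases in peaks as well as with lower peaks.

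Mnt (ENSMUSG00000000282), the repressor found in most cell types, lies on chromosome 11, bases 74830920 to 74845725, on the plus strand. Its covered share was 39.7% in MEF and 49.3% in MEF B12, against 24.9% for OSKM and 47.4% for OSKM B12. Its density was 0.219 in MEF and 0.293 in MEF B12, against 0.111 for OSKM and 0.298 for OSKM B12. OSKM was at 0.507 of MEF (0.426 to 0.604), and OSKM B12 was 2.68 times OSKM (2.26 to 3.18), the highest ratio of the members. The main peak sat over the last exons, from intron 4 past the TES. It had 4515 bases in MEF and in OSKM was shorter, 2629 bases, ending inside exon 6, with a separate peak of 623 bases past the TES. In MEF B12 and OSKM B12 it reached further into intron 4, with 6922 and 6734 bases. Introns of Mnt were 20.9% covered in MEF and 32.2% in MEF B12, against 12.6% for OSKM and 31.4% for OSKM B12.

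Mxi1 (ENSMUSG00000025025), a MXD repressor, lies on chromosome 19, bases 53310518 to 53373293, on the plus strand. It was covered over 2.62% in MEF and 3.81% in MEF B12, against 3.20% for OSKM and 6.05% for OSKM B12. Its density was 0.0103 in MEF and 0.0183 in MEF B12, against 0.0122 for OSKM and 0.0254 for OSKM B12. Like Myc, its OSKM to MEF ratio was above 1, at 1.18, with an interval of 0.866 to 1.61 that holds 1. Every library had a peak over exon 6, the last exon, and one in intron 2. MEF had no other peak in the body, and OSKM had 2 further short ones in introns 2 and 3, of 423 and 473 bases. Past the TES the 3 other libraries had longer peaks than OSKM, 958 bases in MEF, 2741 in MEF B12 and 6032 in OSKM B12 against 390. The next gene, Smndc1, lies 6097 bases past the TES. With a shorter transcript of 46353 bases that has the longest spliced sequence and ends further downstream, the density was 0.0231 in MEF and 0.0521 in MEF B12, against 0.0198 for OSKM and 0.0621 for OSKM B12, which placed OSKM below MEF.

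Mxd4 (ENSMUSG00000037235), a MXD repressor of differentiating cells, lies on chromosome 5, bases 34173887 to 34187710, on the minus strand. Its covered share was 81.6% in MEF and 75.6% in MEF B12, against 68.3% for OSKM and 83.4% for OSKM B12. Its density was 0.581 in MEF and 0.636 in MEF B12, against 0.375 for OSKM and 0.776 for OSKM B12. OSKM was at 0.645 of MEF (0.582 to 0.716) and OSKM B12 at 2.07 times OSKM (1.87 to 2.28). A single peak ran from intron 2 past the TES in MEF and in OSKM B12, with 12343 and 12487 bases. In MEF B12 that peak was split between bases 4186 and 4559 from the TSS and began later, at base 3001 against 2550 in MEF, so the covered share was lower there while the density was 1.10 times that of MEF (0.997 to 1.20, which holds 1).

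Zbtb17 (ENSMUSG00000006215), the gene of MIZ1, lies on chromosome 4, bases 141444654 to 141467225, on the plus strand. Its covered share was 56.7% in MEF and 61.4% in MEF B12, against 45.4% for OSKM and 62.9% for OSKM B12. Its density was 0.361 in MEF and 0.454 in MEF B12, against 0.234 for OSKM and 0.519 for OSKM B12. OSKM was at 0.649 of MEF (0.585 to 0.718) and OSKM B12 at 2.22 times OSKM (2.01 to 2.44). All of its coding exons were in peaks in every library, and the introns were 51.5% covered in MEF and 38.9% in OSKM. The 3′ peak continued well past the gene, by 15105 bases in MEF and 27313 in MEF B12, against 10941 for OSKM and 22119 for OSKM B12. The 3′ end of Spen, on the opposite strand, lies 665 bases beyond the TES, so this peak also covers that gene, and H3K36me3 does not show from which gene the mark at the 3′ end came. The peak had 21074 bases in MEF and 35253 in MEF B12, against 16462 for OSKM and 29802 for OSKM B12, so most of it lay past the TES. Its mean stands for its bases inside Zbtb17. The densities, ratios and intervals of Zbtb17 therefore also hold signal from past the gene.

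**Figure D3:**
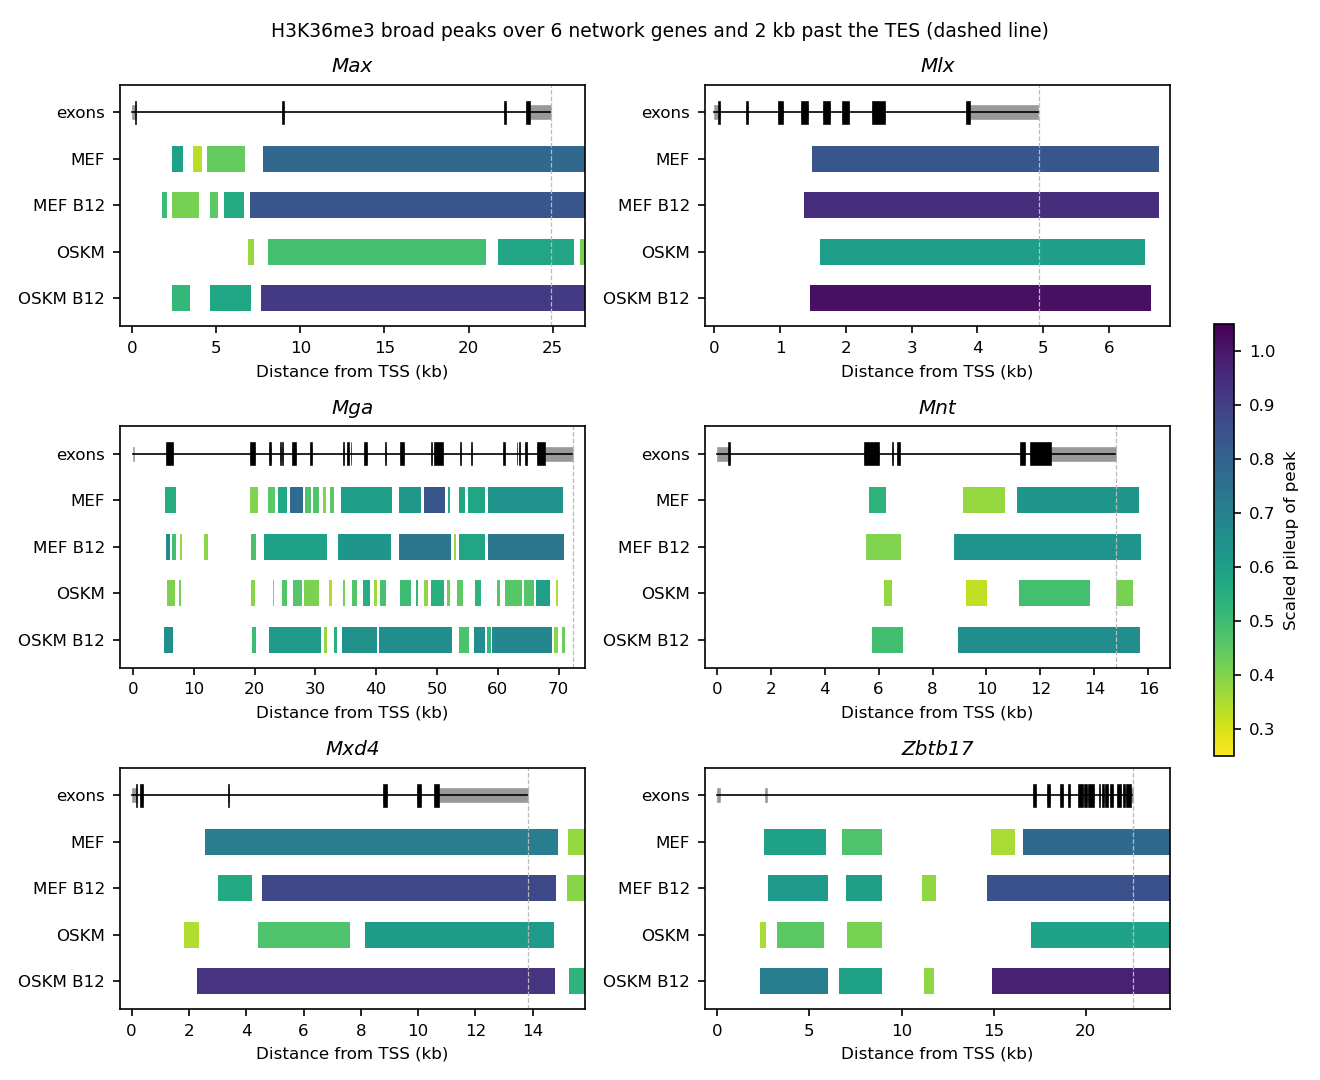
Broad peaks over Max, Mlx, Mga, Mnt, Mxd4 and Zbtb17 and the 2 kb past each TES, against distance from the TSS in kb, with exons at the top (black, coding; grey, untranslated) and colour for the scaled pileup of each peak. In OSKM the peaks are paler, Max has no peak in the first 6886 bases and Mga is broken into 25 peaks, while the peak of Mlx keeps its extent.

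The members differed in the first 20% of the body. Myc, Mlx, Mnt and Mxi1 had no peak there in any library. This part was covered over 34.4% to 49.0% in Zbtb17, 10.45% to 15.5% in Mga and 0% to 19.4% in Mxd4. In Max it was at 0% in OSKM and at 29.0% to 45.0% in the other libraries. The mean over all marked genes lay between 7.09% in OSKM and 14.85% in OSKM B12. The last 50% was covered more than the first 50% in every member with a peak and in every library. Among all marked genes the last 50% was covered more in 87.6% of genes in MEF and 88.7% in MEF B12, against 82.8% for OSKM and 88.7% for OSKM B12, so this position is common to most marked genes. None of the 11 RefSeq promoter windows of the members, from 250 bases before to 50 bases after a start, held a peak base in any library, and neither did 96.1% of all 32851 windows. The table had windows for 8 of the 9 members, all but Myc. The canonical E-box CACGTG, which reads the same on both strands, was found in the windows of 4 members, and is shown here with 10 bases on each side because it is the sequence that MYC and MAX dimers bind.
Max, minus strand, chr12:76962236-76962261: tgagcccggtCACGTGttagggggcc
Mlx, plus strand, chr11:101087240-101087265: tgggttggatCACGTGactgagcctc
Mnt, plus strand, chr11:74830791-74830816: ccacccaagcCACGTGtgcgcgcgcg
Mxd4, minus strand, chr5:34187914-34187939: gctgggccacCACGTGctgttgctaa
Capitals mark the E-box, and positions are those of GRCm38.p6. The letters were found in 2349 of 32851 windows of this length, or 7.15%. Counted by gene, as for the members, they were found in 2187 of 27025 genes with a window, or 8.09%. The windows of Mycn, Mga, Mxi1 and Zbtb17 did not hold them. Of the 4 genes with an E-box, all had a lower density in OSKM than in MEF, as did 96.8% of all marked genes. Of those without one, Mga and Zbtb17 were lower, Mxi1 was at 1.18 times MEF (0.866 to 1.61) and Mycn held no peak.

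Most members stood in the same order of libraries as most marked genes, with OSKM the lowest. From MEF to OSKM the density was lower in 6 of 7 marked members, Max, Mga, Mlx, Mnt, Mxd4 and Zbtb17, where 96.8% of all marked genes were lower. It was higher in 1 member, Myc, where 1.93% of marked genes were higher, but not with the 2 kb past the TES counted or with coding exons left out. This contrast chose the family, so nothing is read from either count. Myc was lightly covered in MEF, and of the 1319 marked genes covered over 5% to 15% there, 3.71% had a higher density in OSKM. The density was lower by more than 1.5-fold in 5 of the 7 members and in 82.5% of marked genes. With pileup divided by its mean over bases in peaks in all 4 libraries, the median over all marked genes was −0.41 from MEF to OSKM, 0.49 from OSKM to OSKM B12 and 0.05 from MEF to MEF B12. The median log2 change of the 7 members was −0.57, from −0.87 in Mga to 0.24 in Myc, against −0.70 over all marked genes.

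With the factors induced, values were higher with vitamin B12 than without it in all marked members, under every scaling tried. From OSKM to OSKM B12 the density was higher in 7 of 7 marked members, where 98.8% of marked genes were higher. With pileup divided by tags, the density was higher by more than 1.5-fold in 7 of 7, where 97.4% were. The median log2 change was 0.96 in the members, from 0.67 in Myc to 1.11 in Mnt, against 0.98 over all marked genes. As a plain ratio of densities, Mlx was the lowest at 1.75 times and Myc was next at 2.04 times (1.37 to 3.04). The ratio of Myc with the 2 kb past the TES was 3.62 (2.51 to 5.22). The size of the difference depended on the scaling. With pileup divided by its mean over bases in peaks in all libraries, the members' log2 changes lay between 0.14 in Mlx and 0.61 in Mnt. Their median was then 0.41, against 0.49 over all marked genes. The 1.5-fold count was not made with that scaling.

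Without doxycycline the difference between libraries with and without vitamin B12 was smaller for 6 of the 7 marked members and larger for Myc over the gene body, though not with the 2 kb past the TES, and the difference between these contrasts was not tested. It was smaller, as a log2 change, for 97.1% of all marked genes. With only peaks of a −log10 q-value of at least 5, Myc had no peak in MEF or MEF B12, so its log2 change was 0 there, against 1.56 from OSKM to OSKM B12. From MEF to MEF B12 the density was higher in 7 of 7 marked members, where 90.4% of marked genes were higher, but Max and Mxd4 were lower when the pileup was not divided by tags or was divided by its mean over shared bases, and Mxd4 also with fold enrichment in place of pileup, and Mga was lower with that q-value limit. The share of marked genes that were higher was 72.7% without the division by tags and 68.2% with shared bases. The density was higher by more than 1.5-fold in 1 of 7, Myc, where 10.3% of marked genes were, and Myc was not among them with the q-value limit. Myc was 2.92 times as dense in MEF B12 as in MEF (1.86 to 4.58), and 1.85 times (1.39 to 2.47) with the 2 kb past the TES. Over the 311 bases in peaks in all libraries this ratio was 1.01. That ratio compares the means of whole peaks, of 431 bases in MEF and 1984 in MEF B12, and not the height at these bases. More of the body was in peaks in MEF B12 (26.7% against 8.69%), in exon 2 and over more of exon 3. The density ratios of the 6 other marked members lay between 1.10 in Mxd4 and 1.34 in Mnt. The median log2 change was 0.22 in the members and 0.21 over all marked genes. The comparisons share the MEF or the OSKM library, so their values are not independent of each other.

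**Figure D4:**
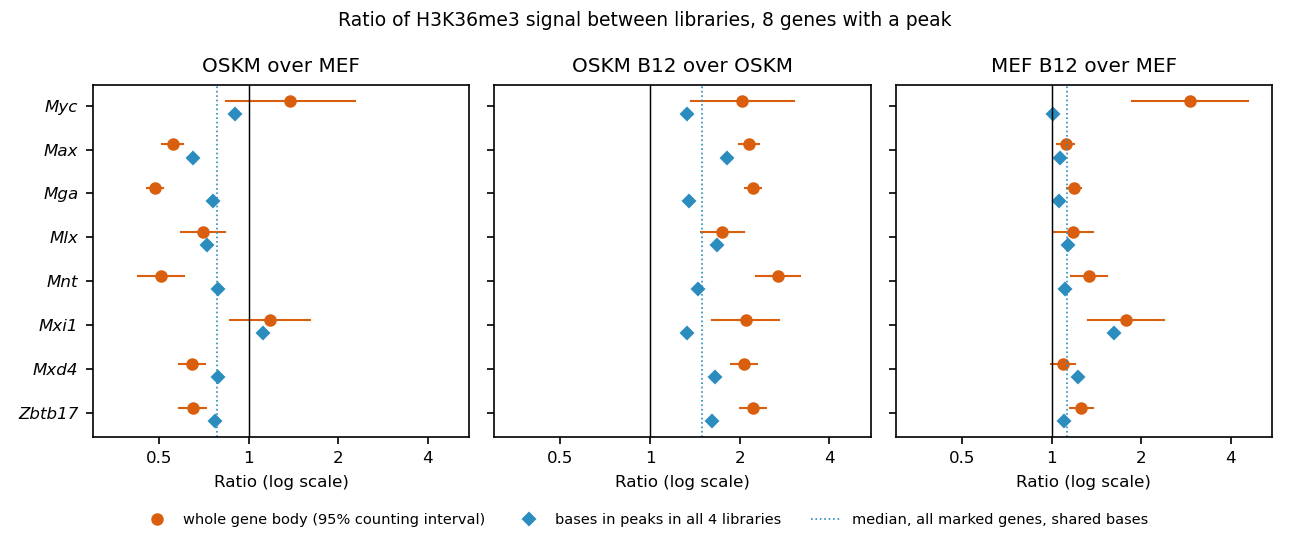
Ratios between libraries for the 8 genes with a peak, on a log axis, for density over the whole gene body (circles, with 95% counting intervals) and for scaled pileup over bases in peaks in all 4 libraries (diamonds), with the median of the latter over marked genes as a dotted line. Myc is at 1.38 by density (0.487 with the 2 kb past its TES, not plotted) and 0.903 over shared bases in the left panel, and at 2.92 and 1.01 in the right panel.

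Genes that work with the network were lower in OSKM than in MEF, as were 96.8% of marked genes. Of all 21853 protein-coding genes, 9885 were marked. Of the rest of the network, Mxd1, Mxd3 and Mlxip were marked and lower in OSKM than in MEF, with a median log2 change of −0.62, and Mycl and Mlxipl held no peak. All 9 cofactors of MYC examined, such as TRRAP, were marked and lower, with a median of −0.57, from −0.69 in Ep400 to −0.31 in Ruvbl2. All 8 genes of MYC turnover were lower, with a median of −0.78, from −1.07 in Usp28, a deubiquitinase, to −0.51 in Aurka, a mitotic kinase that stabilises MYCN. The 6 corepressor genes of the MXD and MNT proteins were all lower, with a median of −0.65, from −0.99 in Ncor1 to −0.47 in Hdac1. Of 9 partners of MGA, 7 were marked and all 7 lower, with a median of −0.80, from −1.04 in Rnf2 to −0.47 in L3mbtl2, while Rybp and Yaf2 were not marked. From OSKM to OSKM B12 every marked gene of these lists was higher, as were 98.8% of all marked genes.

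Known targets of MYC were lower as well, whether activated or repressed by it, as were 96.8% of all marked genes. All 15 genes known to be activated by MYC were marked, where 9885 of all 21853 protein-coding genes were. All 15 had a lower density in OSKM than in MEF, with a median log2 change of −0.69 against −0.70 over all marked genes. Npm1, a nucleolar chaperone gene, was at −1.20, with a density of 0.635 in MEF and 0.247 in OSKM. Odc1, which encodes the rate-limiting enzyme of polyamine synthesis, was at −0.29, with 0.363 in MEF and 0.286 in OSKM. The 3 genes that MYC represses through MIZ1, all cell cycle inhibitors, were also lower. Cdkn2b had a density of 0.113 in MEF and 0.150 in MEF B12, against 0.00478 for OSKM and 0.118 for OSKM B12. Cdkn1a was at 0.369, 0.362, 0.167 and 0.364 in the same order, and Cdkn1c was at 0.0809, 0.0603, 0 and 0.307, with no peak in OSKM. From MEF to MEF B12 the density was lower in 1 of the 15 activated genes and in 2 of the 3 repressed genes, where 8.98% of all marked genes were lower. Of the 2, Cdkn1a had a log2 change of only −0.02.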

How the data were processed

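Reads were aligned by the authors to mm10 with Bowtie (version 0.12.9 in the submitters' processing notes). They merged runs, removed duplicates and called broad peaks on each library against its own input with MACS2 version 2.2.6, at q-value cut-offs of 0.05 and 0.1. The deposited pileup, a signal, averages the extended fragments over the bases of a peak and is not scaled for depth. The deposited fold enrichment is a ratio of pileup to local input with 1 added to both, and the authors' p-values and q-values are on the −log10 scale. At a like p-value the −log10 q-value was lower in OSKM, so the same q-value cut-off was stricter there. For peaks of Mga, a −log10 p-value of 3.032 went with a −log10 q-value of 1.66 in MEF, and 3.046 with 1.422 in OSKM. The part of this in the covered shares and densities of OSKM was not tested. Peaks on unplaced scaffolds (1 to 16 in a library) were left out.

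From these lists, Python 3.11.15 with numpy 2.4.6 and scipy 1.17.1 gave the covered share, the pileup per 1000000 tags, the density, estimated tags (pileup times bases over the fragment length of 288 to 292 bases) and log2 changes with a pseudocount of 0.05, which makes changes of weakly marked genes smaller. Ratios carry log-scale Poisson intervals. With 1 library per condition no p-value was computed. The interval sums were checked against base-by-base sums in 200 simulated cases, of which 200 matched.

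The members and lists were chosen with earlier results of these data known. The genes named are the members, the cassette genes, the 5 marked genes nearest to Myc, and for each list its lowest and highest member from MEF to OSKM; other genes named outside this rule were chosen after their values were seen. 1 of the cofactor genes and the sequence under a peak of Myc are not reported here. The study's RNA-seq was not used here.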

Additional observations from a re-analysis of the deposited data

Results flagged for a closer look

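The covered share of Mxd4 moved in opposite directions with vitamin B12. MEF B12 minus MEF was −5.95 percentage points, and OSKM B12 minus OSKM was 15.1. The density of Mxd4 was higher with vitamin B12 in both. With 1 library per condition the difference between the 2 contrasts was not tested.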

How the results depend on the processing

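No paired analysis was possible because the design holds 1 library per condition, and for the same reason no library could be left out. Of 299 log2 changes of single members under alternatives, 240 moved by less than the counting interval without turning, 50 moved further and 9 reversed. Of the 240, 2 went to 0, those of Mxi1 from MEF to OSKM and from OSKM to OSKM B12 when peaks under a −log10 q of 5 were dropped. Myc was then also 0 from MEF to MEF B12, so it was no longer higher by more than 1.5-fold. Beside those, the change of Myc from MEF to OSKM reversed to −0.59 with the 2 kb past the TES included and to −0.25 with coding exons left out, both chosen after seeing the data, and was 0 with a −log10 q of at least 5, where neither library had a Myc peak. Mxi1 reversed in that comparison with the longest spliced transcript (−0.067), the whole gene (−0.052) and the 2 kb past the TES (−0.013). From MEF to MEF B12, Mga reversed with a −log10 q of at least 5 (−0.042), Max and Mxd4 with pileup not divided by tags (−0.0068 and −0.033) or divided by its mean over shared bases (−0.025 and −0.051), and Mxd4 with fold enrichment (−0.10). The median of the marked members from MEF to OSKM was −1.06 with a −log10 q of at least 5 and −0.21 with shared bases, against −1.82 and −0.41 over all marked genes. From OSKM to OSKM B12 it was 1.56 and 0.41 in the same order, against 2.49 and 0.49 over all marked genes. The members' median in that comparison was 0.80 with fold enrichment and 0.68 with a pseudocount of 0.2. From MEF to MEF B12 it was 0.076 without division by tags and 0.058 with shared bases. The cause of these shifts was not tested. No member turned with equal numbers of peaks. None turned when bases of other genes were left out, but only Mlx (385 bases) and Mxi1 (201 bases) overlap another gene. A limit of at least 2 in fold enrichment could turn none, since every member peak was already above it, the lowest at 2.10. Changes that could not move under these settings are counted among the 240. Depth limits Myc, Mxi1 and Mycn most, since a weak mark below the cut-off counts as 0.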
